A study of Homo sapiens with 11 samples.

Results

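Homeobox genes encode transcription factors that bind DNA through a homeodomain, and this account covers 46 of them in cardiomyocytes grown from the human induced pluripotent stem cell line WTC11. The members were the rows of a gene count table whose symbol named a HOX, PAX, sine oculis, MEIS, PBX, LHX, DLX, MSX, OTX, PROX or PRRX gene, which 46 of 19990 genes did. They comprised 17 HOX genes (5 of HOXA, 8 of HOXB, 1 of HOXC and 3 of HOXD), 7 MEIS and PBX genes, 2 PAX genes, 5 sine oculis genes, 3 LHX genes, 7 DLX and MSX genes, 2 OTX genes, 2 PROX genes and PRRX1. The cells came from a single differentiation of passage 63 WTC11 cells, driven by the GSK3 inhibitor CHIR99021 and then the Wnt secretion inhibitor IWP2, and were afterwards kept in RPMI1640 with B27 containing insulin. Separate wells were collected at Day 30 (4 wells), Day 60 (3 wells) and Day 113 (4 wells), with no treatment other than time in culture, to follow maturation over long-term culture. Poly(A) RNA was sequenced as paired reads of 150 bp. The line has a single donor and the replicates are wells of the same differentiation, so every p-value below measures only the spread between wells, and day of culture and day of collection cannot be told apart.

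HOX genes lie in clusters in which genes at the 3′ end are used further forward along the body axis and genes at the 5′ end further back, and the cells that form the heart use the 3′ genes. MEIS and PBX proteins, of the TALE class, bind DNA together with HOX proteins and sharpen their choice of sites. PAX6, SIX3, SIX6, LHX2, OTX1 and OTX2 are best known from the early eye and forebrain, SIX4 acts with EYA proteins in muscle, MSX and DLX genes respond to BMP signals, PROX1 is used by lymphatic endothelium, lens, liver and heart muscle, and PRRX1 marks mesenchyme.

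Library totals ran from 24071375 to 34546715 counts, and the members held 0.122% to 0.148% of them. Levels are given as counts per 1000000 counts (CPM) after scaling between libraries, and differences between days as log2 fold changes with a standard error (SE) and an adjusted p-value from edgeR's quasi-likelihood test over all 19990 genes, where an adjusted p under 0.05 is a call. The 13 cardiomyocyte markers examined (TNNT2, MYH6, MYH7 and others) were all in the table and summed to 31320 to 44270 CPM in the 11 wells, as the label says. Genes of other cell types were present too. A set of 18 lens and eye genes summed to 14.8 to 37.1 CPM at Day 30, 157.3 to 752 at Day 60 and 31.7 to 271 at Day 113. The 13 endothelial genes summed to 93.4 to 127.8, 77.4 to 107.1 and 267 to 936 CPM at the 3 days. The 12 fibroblast and mesenchyme genes summed to 6907 to 18100, 2647 to 4367 and 6509 to 16330 CPM. A set of 11 neural genes summed to 412.7 to 556, 335.6 to 390.6 and 275.8 to 341.8 CPM. By Day 60, 1 was called higher and 1 lower (4.39% and 5.91% of all genes). Their median log2 fold change was 1.42 by Day 60, -0.74 after it and 0.30 over the course. The falling sums thus do not stand for the typical gene of that set. In bulk RNA such as this, a gene's fall from fewer cells of a type and its fall from less RNA per cell cannot be told apart.

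Of the 46 members, 31 reached a mean of 1 CPM at some day, 16 reached 10 CPM, and 15 (32.6%) stayed under 1 CPM at every day, as did 17.0% of the whole table. All 46 were tested. Between Day 30 and Day 60, 6 members were called (13.0%; 5 higher and 1 lower), where 10.3% of all genes were (4.39% higher and 5.91% lower). Between Day 60 and Day 113, 8 members were called (17.4%; 2 higher and 6 lower) against 24.0% of all genes (12.9% higher and 11.1% lower). That split of all genes, 2570 higher and 2220 lower, became 2083 and 2650 with upper-quartile scaling, which left the members at 2 higher and 7 lower. Over the whole course, Day 113 against Day 30, 18 were called (39.1%; 8 higher and 10 lower) against 34.5% (17.3% higher and 17.2% lower). Wells were fully separated by day for 11, 10 and 18 members in the 3 pairs, beside 24.8%, 30.6% and 35.1% of all genes. A joint test of any change over the days called 17 members (37.0%), beside 37.1% of all genes. Their median log2 fold changes were -0.07, -0.29 and -0.003 for the 3 pairs of days in that order, beside -0.01, 0.002 and -0.02 over all genes. With genes at the detection floor set to their bound, the second median was -0.38, over 45 members, and the other medians kept their values. The difference between the 2 intervals was called for 6 members (13.0%; 1 higher and 5 lower), beside 9.34% of all genes (4.97% higher and 4.38% lower).

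**Figure D1:**
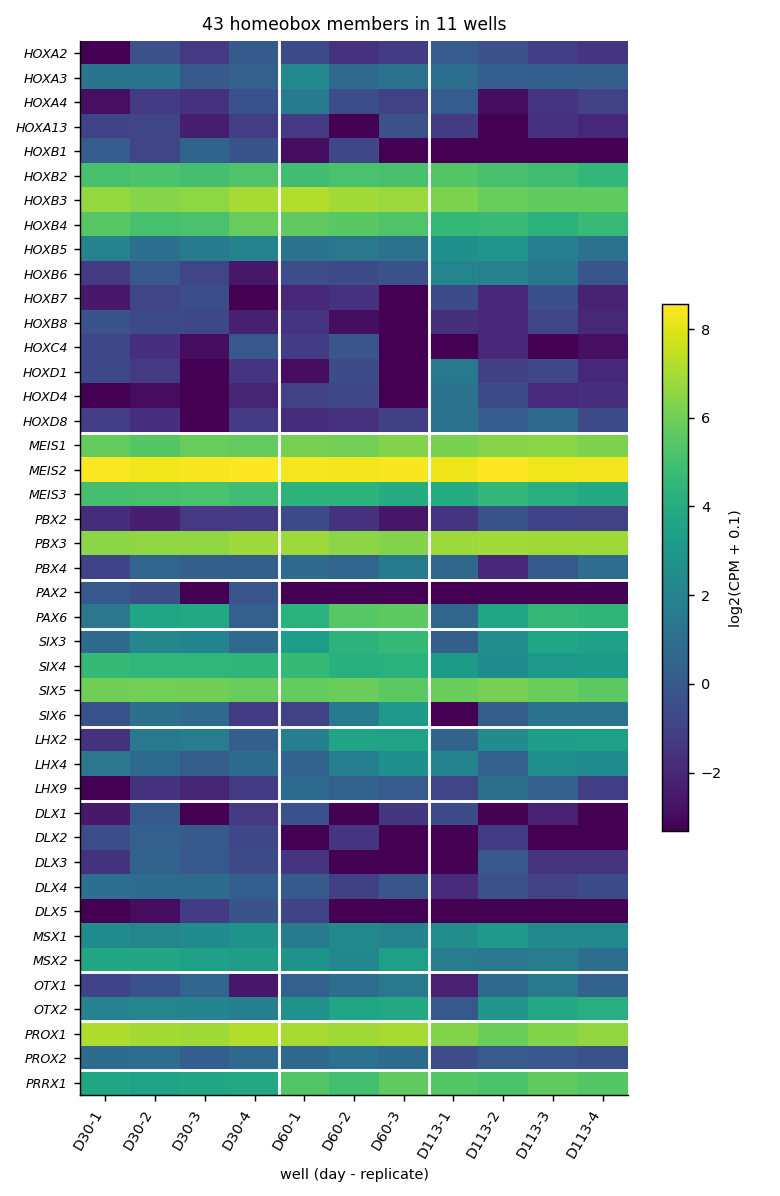
Level of 43 of the members in each of the 11 wells, as log2(CPM + 0.1); rows are genes in the order of their families, with white lines between families, and columns are wells by day and replicate. MEIS2, PBX3, PROX1, HOXB3 and SIX5 are high in all wells, while most HOXA, HOXC, HOXD and DLX rows stay dark.

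**Figure D2:**
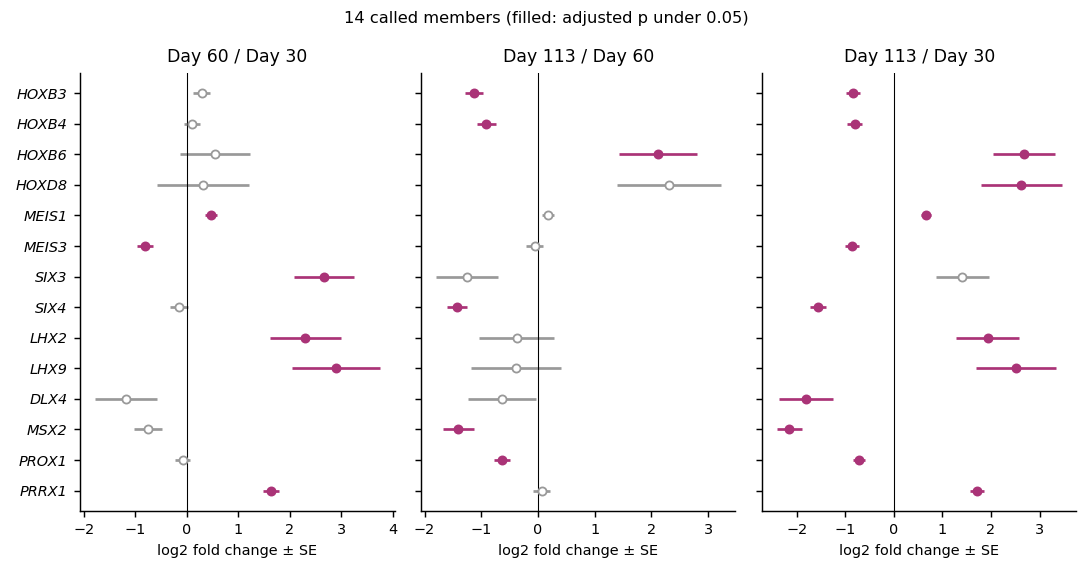
Log2 fold change with its standard error for 14 called members whose mean reached 1 CPM, in the 3 pairs of days; filled points have an adjusted p under 0.05. PRRX1 lies at 1.63 for Day 60 against Day 30 and at 0.07 for Day 113 against Day 60, while HOXB3, SIX4 and MSX2 lie left of 0 in the second pair.

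Per kilobase of merged exons, which allows genes to be set beside each other, the highest member at Day 30 was MEIS2 at 32.5 ± 2.47 CPM per kb (SD, n = 4). PBX3 followed at 21.8 ± 2.21, SIX5 at 17.5 ± 1.23, HOXB2 at 15.3 ± 1.18, PROX1 at 14.8 ± 1.61 and HOXB3 at 13.8 ± 2.68 CPM per kb. From SIX5 to HOXB3 the SDs of neighbours in this order overlapped, so their order was not resolved. By Day 113, HOXB3 was at 7.68 ± 1.45 CPM per kb. With the longest transcript as the length, SIX5 ranked 6 at Day 30 in place of 3.

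The HOX signal came almost wholly from the HOXB cluster on chromosome 17, and within it from HOXB2, HOXB3 and HOXB4. These 3 genes held 94.2% to 96.5% of all HOX counts in the Day 30 and Day 60 wells and 86.0% to 94.1% in the Day 113 wells. HOXB3 and HOXB4 fell after Day 60, HOXB2 was not called, HOXB1 fell to 0 counts, and HOXB6 rose. Of the 17 HOX genes, 6 were called between Day 30 and Day 113 (3 higher and 3 lower), where 34.5% of all genes were. HOXB genes toward the 3′ end are used in the hindbrain and in progenitors of the posterior heart.

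HOXB3 (chromosome 17, 48548870 to 48590241, minus strand, GRCh38) measured 103, 84.8, 91.8 and 130.2 CPM in the Day 30 wells, 145, 119.7 and 111 at Day 60 and 73.00, 55.4, 49.7 and 50.9 at Day 113. All Day 113 wells lay below all earlier wells, while the Day 30 and Day 60 ranges overlapped. The log2 fold change was -1.13 ± 0.16 (SE) from Day 60 to Day 113 (adjusted p = 0.00013) and -0.84 ± 0.15 (SE) over the whole course (adjusted p = 0.00039), after 0.29 ± 0.16 (SE) in the first interval (adjusted p = 0.30). The 2 intervals differed by -1.42, adjusted p = 0.0046. HOXB4 (chromosome 17, 48575507 to 48578350, minus strand), the next gene in the 5′ direction, measured 43.8, 33.8, 35.7 and 54.6 CPM, then 50.3, 45.4 and 39.1, then 23.7, 25.9, 20.00 and 26.2. Again every Day 113 well was below every earlier one. HOXB4 fell by 0.91 ± 0.16 (SE) on the log2 scale after Day 60 (adjusted p = 0.00080) and by 0.81 ± 0.15 (SE) over the course (adjusted p = 0.00059). Its interval difference of -1.01, adjusted p = 0.033, was not called without Day 30 replicate 3 (0.061), Day 60 replicate 1 (0.17), Day 60 replicate 2 (0.089) or Day 113 replicate 3 (0.053). HOXB2 (chromosome 17, 48542655 to 48545109, minus strand) measured 34.7, 36.2, 32.7 and 39.2 CPM at Day 30, 30.00, 35.2 and 34.4 at Day 60 and 41.2, 34.3, 29.8 and 23.3 at Day 113. The 3 days overlapped, the whole-course log2 fold change was -0.15 ± 0.14 (SE), and no pair of days was called (adjusted p = 0.47 over the course). Of HOXB3's merged exon length, 2.13% is shared with HOXB4, 5.81% with HOXB6 and 5.02% with the antisense RNA HOXB-AS1, and whether counting used strand is not given in the sources used here.

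HOXB1 (chromosome 17, 48528526 to 48531011, minus strand), the 3′-most gene of the cluster, was scarce from the outset at 0.993, 0.467, 1.32 and 0.756 CPM in the Day 30 wells. It measured 0.0319, 0.479 and 0 CPM at Day 60 and had 0 counts in each Day 113 well. Set against a floor of 3 counts per library, Day 113 was at least 8.72-fold lower than Day 30 (adjusted p = 0.0035) with no overlap between wells. The step from Day 60 to Day 113 (adjusted p = 0.045) rested on Day 60 replicate 2, since without that well the adjusted p was 0.37. It was also lost without any single Day 30 or Day 113 well, at 0.057 to 0.079. Under limma-voom (0.39) and with replicate number as an added factor (0.15) the step was not called either. HOXB6 (chromosome 17, 48595751 to 48604986, minus strand), further toward the 5′ end, went the other way, from 0.306, 0.867, 0.461 and 0.0687 CPM at Day 30 to 0.606, 0.553 and 0.726 at Day 60 and 4.13, 3.56, 2.45 and 0.802 at Day 113. Replicates 1 to 3 of Day 113 were above all earlier wells, and replicate 4 was within the Day 30 range. Its log2 fold change over the course was 2.67 ± 0.64 (SE) (adjusted p = 0.0041) and ran from 2.32 without Day 30 replicate 4 to 3.29 without Day 30 replicate 2. The rise from Day 60, 2.12 ± 0.69 (SE) (adjusted p = 0.035), was lost under limma-voom (0.066) and without any Day 60 well or any of Day 113 replicates 1 to 3 (0.056 to 0.098). HOXB6 shares 16.6% of its merged exons with HOXB3 and 16.3% with HOXB-AS3, which was at 0 to 0.573 CPM. HOXB5 measured 3.82, 1.90, 2.80 and 3.85 CPM, then 2.20, 2.54 and 2.05, then 6.21, 7.16, 3.34 and 2.05, a log2 fold change of 1.05 ± 0.41 (SE) after Day 60 that was not called (adjusted p = 0.073). Without Day 113 replicate 4 it was called (0.019). HOXB7 and HOXB8 stayed at 0 to 0.656 and 0 to 0.726 CPM and were not called. Summed over HOXB5 to HOXB8, the Day 113 wells held 11.08, 11.02, 6.90 and 3.13 CPM and the earlier wells 2.78 to 4.93 CPM, so replicate 4 of Day 113 lay within the earlier range and the other 3 above it.

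**Figure D3:**
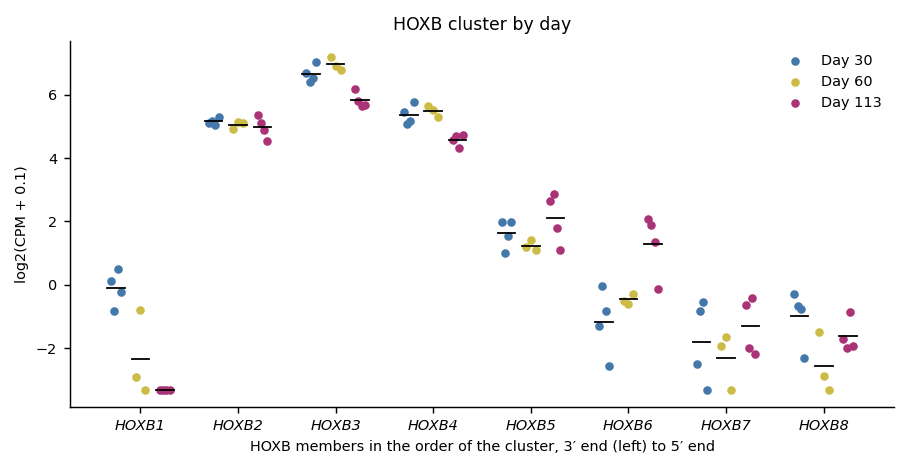
HOXB genes in the order of the cluster from the 3′ end (left), each well as a point at log2(CPM + 0.1) and each day's mean of those values as a bar. HOXB3 and HOXB4 sit lower at Day 113, HOXB1 is at 0 counts in all Day 113 wells, and HOXB6 is higher in 3 of 4 Day 113 wells.

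The 3 HOXD genes were at most 0.553 CPM in any well before Day 113. HOXD8 (chromosome 2, 176129705 to 176132695, plus strand) measured 0.344, 0.20, 0 and 0.309 CPM at Day 30, 0.192, 0.221 and 0.379 at Day 60 and 2.11, 1.01, 1.63 and 0.562 at Day 113. Every Day 113 well lay above every earlier well, and the whole-course log2 fold change was 2.63 ± 0.84 (SE) (adjusted p = 0.023). The call was lost without Day 30 replicate 2 (0.053), Day 113 replicate 1 (0.070) or Day 113 replicate 3 (0.053). It was also lost with replicate number as an added factor (0.057). HOXD4 was called over the course (adjusted p = 0.033) at a log2 fold change of 4.00 ± 1.37 (SE), with 0, 0.0334, 0 and 0.137 CPM at Day 30 and 2.05, 0.562, 0.171 and 0.201 at Day 113. Without Day 113 replicate 1 the HOXD4 change was 2.73 (0.16), and without Day 30 replicate 4 it was 5.59 (0.022). The HOXD4 call was lost without Day 30 replicate 1, 2 or 3 (0.075 to 0.083). It was also lost under limma-voom (0.097) and with replicate number as an added factor (0.058). HOXD1 measured 2.66, 0.375, 0.485 and 0.16 CPM at Day 113 and was not called (adjusted p = 0.27). All 3 HOXD genes were highest in Day 113 replicate 1, the well that also had the highest endothelial sum (936 CPM against 267 to 477 in the other Day 113 wells), and the part of those cells in the HOXD values was not tested. HAGLR, a noncoding RNA of the HOXD cluster whose exons overlap 8.00% of HOXD1's, was likewise highest in replicate 1, with 2.68, 2.02, 1.80 and 0.441 CPM at Day 113 after 0.192, 0.295 and 0.221 at Day 60 (log2 fold change 2.87 ± 0.95 (SE), adjusted p = 0.038). HOXD4 shares 80.5% of its exon length with an overlapping gene model.

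HOXA3, HOXA4, HOXA2, HOXA13 and HOXC4 were low and none was called. HOXA3 was the highest of these, with 2.37, 2.30, 0.889 and 1.13 CPM, then 4.76, 1.58 and 2.05, then 1.85, 1.09, 1.06 and 1.12, and Day 60 replicate 1 stood above the rest. HOXA4 had the same high well, at 2.90, 0.626 and 0.41 CPM for Day 60. Over all wells HOXA2 measured 0 to 0.953 CPM, HOXA13 0 to 0.662 and HOXC4 0 to 0.824.

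Among the TALE cofactors of HOX proteins, MEIS1 rose, MEIS3 fell, and MEIS2 and PBX3 were not called. MEIS1 (chromosome 2, 66435125 to 66573869, plus strand), which is known to restrain the cell cycle of heart muscle cells after birth, measured 53.7, 43.3, 54.8 and 52.01 CPM at Day 30, 68.8, 64.8 and 78.9 at Day 60 and 72.5, 85.1, 87.6 and 75.1 at Day 113. Day 30 lay below both later days without overlap. Its log2 fold change was 0.48 ± 0.11 (SE) by Day 60 (adjusted p = 0.012, and 0.055 without Day 60 replicate 3) and 0.65 ± 0.10 (SE) by Day 113 (adjusted p = 0.00018). MEIS3 (chromosome 19, 47403124 to 47422233, minus strand), known from the hindbrain, measured 32.9, 34.6, 35.01 and 30.2 CPM at Day 30, 20.4, 20.2 and 16.3 at Day 60 and 16.2, 23.6, 17.9 and 15.3 at Day 113. All Day 30 wells were above all later ones, and the later days overlapped. MEIS3 fell by 0.81 ± 0.15 (SE) on the log2 scale by Day 60 (adjusted p = 0.0033) and by 0.86 ± 0.14 (SE) by Day 113 (adjusted p = 0.00021). MEIS2, the most abundant member per length, stayed at 306 to 377 CPM in all wells (adjusted p = 0.42 over the course, log2 fold change -0.10 ± 0.09 (SE)).

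PBX3 measured 90.5, 95.9, 94.9 and 113 CPM, then 113, 89.9 and 81.4, then 113, 119, 118 and 116, and was not called after Day 60 (adjusted p = 0.075). Leaving out Day 60 replicate 1, the one Day 60 well as high as Day 113, gave 0.019. PBX4 ranged over 0.15 to 2.93 CPM and PBX2 over 0.0631 to 0.712 CPM, and neither was called.

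PRRX1 (chromosome 1, 170662768 to 170739421, plus strand), a gene of limb and heart valve mesenchyme and of fibroblasts, had the smallest adjusted p of all members. It measured 13.4, 11.8, 13.7 and 14.2 CPM at Day 30, 41.3, 31.4 and 50.7 at Day 60 and 42.7, 36.7, 49.9 and 43.3 at Day 113. Day 30 was below every later well, and Days 60 and 113 overlapped. The log2 fold change was 1.63 ± 0.15 (SE) by Day 60 (adjusted p = 1.1e-05), 0.07 ± 0.15 (SE) from Day 60 to Day 113 (adjusted p = 0.79) and 1.70 ± 0.15 (SE) over the course (adjusted p = 3.8e-07), and the intervals differed by -1.57, adjusted p = 0.0019. The fibroblast and mesenchyme sum was highest at Day 30 replicate 2 and lowest at Day 60 replicate 3, the well with the highest PRRX1. Of the 12 genes in that sum, 2 were called higher and 4 lower by Day 60, beside 4.39% and 5.91% of all genes. The part of such cells in the PRRX1 values was not tested.

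MSX2, SIX4 and PROX1 fell. MSX2 (chromosome 5, 174724582 to 174730896, plus strand), a repressor induced by BMP signals, measured 14.1, 13.9, 10.9 and 9.89 CPM at Day 30, 7.02, 4.496 and 10.2 at Day 60 and 3.20, 2.59, 3.20 and 1.89 at Day 113. Every Day 113 well was below every earlier well, while Day 60 replicate 3 reached into the Day 30 range. MSX2 fell by 1.41 ± 0.27 (SE) on the log2 scale after Day 60 (adjusted p = 0.0017) and by 2.16 ± 0.26 (SE) over the course (adjusted p = 1.3e-05). In the first interval the change of -0.75 ± 0.27 (SE) was not called (adjusted p = 0.097). It was called without Day 60 replicate 3 (0.042) and with replicate number as an added factor (0.032). Its relative MSX1 stayed at 2.78 to 8.62 CPM and was not called (adjusted p = 0.61 over the course).

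SIX4 (chromosome 14, 60709539 to 60724351, minus strand), which acts in muscle development, measured 25.1, 22.5, 22.5 and 22.1 CPM at Day 30, 25.02, 18.6 and 18.96 at Day 60 and 8.80, 5.40, 8.02 and 8.71 at Day 113. The Day 113 wells were all below the others, and Days 30 and 60 overlapped. It fell by 1.43 ± 0.17 (SE) on the log2 scale after Day 60 (adjusted p = 4.3e-05) and by 1.58 ± 0.16 (SE) over the course (adjusted p = 3.0e-06). The interval difference of -1.29, adjusted p = 0.014, was lost without Day 60 replicate 1 (0.12). SIX5, which lies beside the myotonic dystrophy gene DMPK, stayed at 47.6 to 69.7 CPM and was not called (adjusted p = 0.55 over the course). An antisense gene model covers 56.8% of its merged exons.

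PROX1 (chromosome 1, 213983151 to 214041510, plus strand) measured 143, 126, 115 and 145 CPM at Day 30, 129, 117 and 129 at Day 60 and 81.7, 59.6, 80.6 and 99.8 at Day 113. All Day 113 wells lay below all earlier ones. PROX1 fell by 0.64 ± 0.14 (SE) on the log2 scale after Day 60 (adjusted p = 0.0036) and by 0.72 ± 0.13 (SE) over the course (adjusted p = 0.00047). PROX1-AS1, transcribed from the opposite strand and overlapping 1.92% of PROX1's exons, fell by 1.47 ± 0.15 (SE) over the course (adjusted p = 3.1e-06), from 19.8 ± 1.41 (SD, n = 4) CPM to 7.18 ± 1.42 (SD, n = 4). PROX1 directs the lymphatic endothelial fate, and the lymphatic marker LYVE1 went from 0 counts in the Day 30 wells to 11.6, 2.47, 5.16 and 4.01 CPM at Day 113, a rise of at least 55.8-fold (adjusted p = 2.8e-05). In Day 113 replicate 1, which held the most LYVE1, PROX1 was 81.7 CPM, between the other wells of that day. The part of endothelial cells in the PROX1 values was not tested. PROX2 measured 0.606 to 2.14 CPM and was below all earlier wells at Day 113, with a log2 fold change of -1.20 ± 0.43 (SE) after Day 60 that was not called (adjusted p = 0.053). Scaling by the upper quartile called it (0.042), as did DESeq2 (0.023), DESeq2 size factors within edgeR (0.0497), a filter of at least 1 CPM in 3 libraries (0.040) and the fit without Day 113 replicate 2 (0.049).

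**Figure D4:**
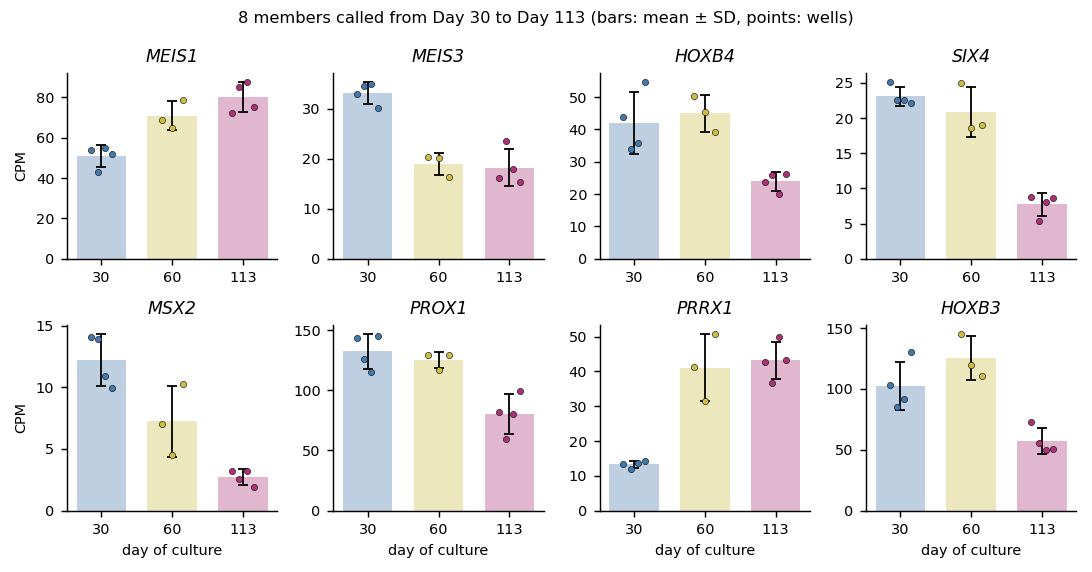
CPM by day for 8 members called between Day 30 and Day 113; bars are means, error bars SDs over 4, 3 and 4 wells, and points are wells. MEIS1 and PRRX1 are higher at Day 113, and MEIS3, HOXB4, SIX4, MSX2, PROX1 and HOXB3 are lower.

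A group of 6 members known from the early eye and forebrain, PAX6, SIX3, SIX6, LHX2, OTX1 and OTX2, had higher means at Day 60 than at Day 30. The group was picked by hand and does not hold every member used in the eye. PAX2, a gene of kidney and optic stalk left out of it, went the other way. It measured 0.878, 0.60, 0 and 0.79 CPM at Day 30 and had 0 counts in every later well. PAX6 is the paired-box factor of eye formation, SIX3 and SIX6 pattern the eye and forebrain, LHX2 is needed for the optic vesicle, and OTX1 and OTX2 act in the forebrain and the retinal pigment epithelium. Of the 6, SIX3 and LHX2 were called, and PAX6, SIX6, OTX1 and OTX2 are described well by well because of their values. Whether these 6 genes share a regulator was not tested. The 250 bases upstream of an annotated start are shown for the 5 with an entry in the RefSeq promoter table (GRCh38.p14). They are PAX6 at chr11:31817962-31818211 (minus strand, 1 of its 9 starts), SIX6 at chr14:60508896-60509145 (plus strand), LHX2 at chr9:124011518-124011767 (plus strand), OTX1 at chr2:63050580-63050829 (plus strand) and OTX2 at chr14:56810480-56810729 (minus strand, 1 of 2 starts). The capitals mark a CCAAT box (CCAAT, or ATTGG on the other strand) and the core of the site bound by MEIS proteins (TGACAG, or CTGTCA). Each is written 5′ to 3′ along the gene's strand.
PAX6: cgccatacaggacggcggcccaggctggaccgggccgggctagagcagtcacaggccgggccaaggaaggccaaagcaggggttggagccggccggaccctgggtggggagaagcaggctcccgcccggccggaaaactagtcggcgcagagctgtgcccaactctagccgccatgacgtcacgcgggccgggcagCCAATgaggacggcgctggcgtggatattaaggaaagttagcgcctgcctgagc
SIX6: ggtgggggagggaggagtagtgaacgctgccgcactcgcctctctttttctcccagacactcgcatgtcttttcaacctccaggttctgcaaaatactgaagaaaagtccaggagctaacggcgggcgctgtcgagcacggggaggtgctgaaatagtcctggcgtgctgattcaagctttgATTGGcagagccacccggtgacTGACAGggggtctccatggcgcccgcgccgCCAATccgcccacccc
LHX2: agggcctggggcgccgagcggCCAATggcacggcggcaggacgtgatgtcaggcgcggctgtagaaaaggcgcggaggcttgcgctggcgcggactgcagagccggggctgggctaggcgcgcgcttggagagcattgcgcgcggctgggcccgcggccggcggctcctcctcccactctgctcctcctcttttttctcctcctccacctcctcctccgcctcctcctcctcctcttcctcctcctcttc
OTX1: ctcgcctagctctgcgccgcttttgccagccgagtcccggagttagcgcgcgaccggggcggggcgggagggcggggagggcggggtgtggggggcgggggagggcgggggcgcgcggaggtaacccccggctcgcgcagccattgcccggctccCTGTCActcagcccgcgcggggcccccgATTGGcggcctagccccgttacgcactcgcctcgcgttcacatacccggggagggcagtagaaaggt
OTX2: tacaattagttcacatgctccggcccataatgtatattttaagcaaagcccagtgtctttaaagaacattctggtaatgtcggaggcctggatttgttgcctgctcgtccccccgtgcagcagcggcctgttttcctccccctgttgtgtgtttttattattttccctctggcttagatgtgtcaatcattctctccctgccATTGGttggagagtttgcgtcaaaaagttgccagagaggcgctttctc
All 5 windows hold CCAAT, which 32.0% of 35116 such windows in the table do, and SIX6 and OTX1 hold TGACAG, which 13.0% do. The window of PRRX1, a member outside this group, holds CCAAT too. The 2 motifs did not overlap in any of the 5. Of the 49 windows of the 30 members in that table, 24 hold CCAAT, 9 hold TGACAG, 4 the joint PBX and HOX motif TGATNNAT (6.47% of all windows), 3 the OTX motif GGATTA (5.62%) and 1 the homeodomain core TAATTA (4.35%), each on either strand. The G and C content of the printed windows was 68.4% for PAX6, 60% for SIX6, 70.4% for LHX2, 75.2% for OTX1 and 47.2% for OTX2, where the median of all windows was 58%. The GC box GGGCGG, also searched, lay in 25 of the 49 member windows and in 42.6% of all windows. A match is a match of letters only.

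SIX3 (chromosome 2, 44941702 to 44946071, plus strand) measured 1.68, 4.44, 3.98 and 1.55 CPM at Day 30, 10.1, 20.5 and 24.95 at Day 60 and 1.10, 5.81, 13.04 and 11.2 at Day 113. Every Day 60 well was above every Day 30 well, and Day 113 spanned both. The log2 fold change by Day 60 was 2.66 ± 0.58 (SE) (adjusted p = 0.0076), and with robust dispersions the adjusted p was 0.055. The intervals differed by -3.91, adjusted p = 0.016, a call that was lost with robust dispersions (0.077) and without Day 60 replicate 2 (0.055) or replicate 3 (0.10). Over the whole course the change of 1.41 ± 0.54 (SE) was not called (adjusted p = 0.056). It was called without Day 113 replicate 1 (0.0018) or Day 30 replicate 2 (0.049), and with replicate number as an added factor (0.035). The change after Day 60 was -1.25 ± 0.55 (SE) in the main edgeR fit (adjusted p = 0.12). Under limma-voom (0.032) and with that added factor (0.019) it was called.

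LHX2 (chromosome 9, 124011768 to 124033301, plus strand) measured 0.229, 2.70, 3.19 and 1.06 CPM at Day 30, 3.35, 11.98 and 11.6 at Day 60 and 1.33, 5.44, 10.2 and 10.7 at Day 113. Day 60 lay above Day 30, narrowly in replicate 1, and Day 113 replicate 1 fell within the Day 30 range. Its log2 fold change was 2.31 ± 0.69 (SE) by Day 60 (adjusted p = 0.042) and 1.93 ± 0.65 (SE) by Day 113 (adjusted p = 0.031). Both calls were lost under DESeq2 (0.064 and 0.052), limma-voom (0.12 and 0.14) and robust dispersions (0.14 and 0.11). The Day 60 call was also lost without Day 30 replicate 1, 2 or 4, Day 60 replicate 2 or 3, or Day 113 replicate 3 (0.051 to 0.14), and the Day 113 call without Day 30 replicate 1 or 4 or Day 113 replicate 3 or 4 (0.070 to 0.086).

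PAX6 (chromosome 11, 31789026 to 31817961, minus strand) measured 2.52, 12.8, 14.2 and 1.13 CPM at Day 30, 19.3, 44.9 and 48.7 at Day 60 and 1.41, 12.9, 23.7 and 21.6 at Day 113. Day 60 was above Day 30 without overlap, yet the log2 fold change of 2.29 ± 0.74 (SE) was not called in the fit of all 11 wells (adjusted p = 0.062). It was called without Day 113 replicate 1 (0.012), with the 2 days fitted alone (0.013) and with replicate number as an added factor (0.0075). After Day 60 the log2 fold change was -1.34 ± 0.72 (SE) (adjusted p = 0.20). The exons of ELP4, on the opposite strand, cover 25.2% of PAX6's merged exons, and ELP4 ranged over 12.3 to 20.7 CPM with no call. Like PAX6 it was lowest in replicate 1 at Day 60, but not at Day 113. OTX2 (chromosome 14, 56799905 to 56810479, minus strand) measured 3.78, 4.14, 4.01 and 3.44 CPM, then 6.45, 13.04 and 14.6, then 0.866, 7.16, 14.3 and 17.7. At Day 30 the wells were close together, and at Day 113 replicate 1 was the lowest well of all and replicate 4 the highest. The change by Day 60, 1.56 ± 0.57 (SE), was not called (adjusted p = 0.10) except without Day 113 replicate 1 (0.0023) or with the 2 days fitted alone (0.00079). By Day 113 it was 1.38 ± 0.54 (SE) (adjusted p = 0.062) with all wells and 1.77 (0.00025) without Day 113 replicate 1. SIX6 measured 0.687, 1.97, 1.58 and 0.309 CPM, then 0.415, 2.76 and 8.36, then 0, 1.05, 2.17 and 2.13, and OTX1 0.42, 0.70, 1.35 and 0.0687, then 1.15, 1.77 and 2.62, then 0.115, 1.65, 2.71 and 1.20. Neither was called (adjusted p = 0.31 and 0.29 by Day 60).

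The same wells were lowest for all 6, though the Day 30 wells of OTX2 lay close together, at 3.44 to 4.14 CPM. The share of all genes with the same lowest wells was not counted. At Day 30, replicates 1 and 4 were the lowest pair for 6 of 6 genes, and replicate 1 was the lowest well for 6 of 6 at Day 60 and for 6 of 6 at Day 113. Summed over the 6 genes the wells held 9.32, 26.8, 28.4 and 7.56 CPM at Day 30, 40.7, 95.0 and 110.9 at Day 60, and 4.82, 34.0, 66.2 and 64.5 at Day 113. The sums of the 18 lens and eye genes had the same low wells, at 18.0 and 14.8 CPM for replicates 1 and 4 of Day 30 against 35.4 and 37.1, 157.3 for replicate 1 of Day 60 against 752 and 382, and 31.7 for replicate 1 of Day 113 against 271, 244 and 179. At Day 30 the pigment cell gene PMEL alone held 27.15 CPM of the sum in replicate 2 and 6.18 in replicate 4. The low wells of that day's sum were thus largely those of 1 gene. Of those 18 genes, 15 rose by Day 60 (4.39% of all genes were called higher), 9 fell after it (11.1% of all genes were called lower) and 13 were higher at Day 113 than at Day 30 (17.3%). RAX, which like the 6 members acts in the eye field and was picked here after its values were seen, measured 1.45, 1.40, 1.45 and 1.72 CPM at Day 30, 3.13, 13.4 and 12.5 at Day 60 and 0.202, 2.74, 11.5 and 12.4 at Day 113. It was lowest in replicate 1 at Days 60 and 113, but at Day 30 its wells were close together and replicate 4, a low well of the members, was the highest. PMEL, picked likewise, measured 16.2, 127, 208 and 135 CPM at Day 113, lowest in replicate 1, and so made up much of that day's sums too. TYR, another pigment cell gene, was highest in replicate 1 at Day 60, with 2.87, 2.17 and 2.68 CPM. The crystallin CRYBA4, a lens protein, had another order at Day 113, 0.924, 20.1, 0.542 and 1.44 CPM, highest in replicate 2. How much of the members' change reflects the number of such cells in a well was not tested.

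**Figure D5:**
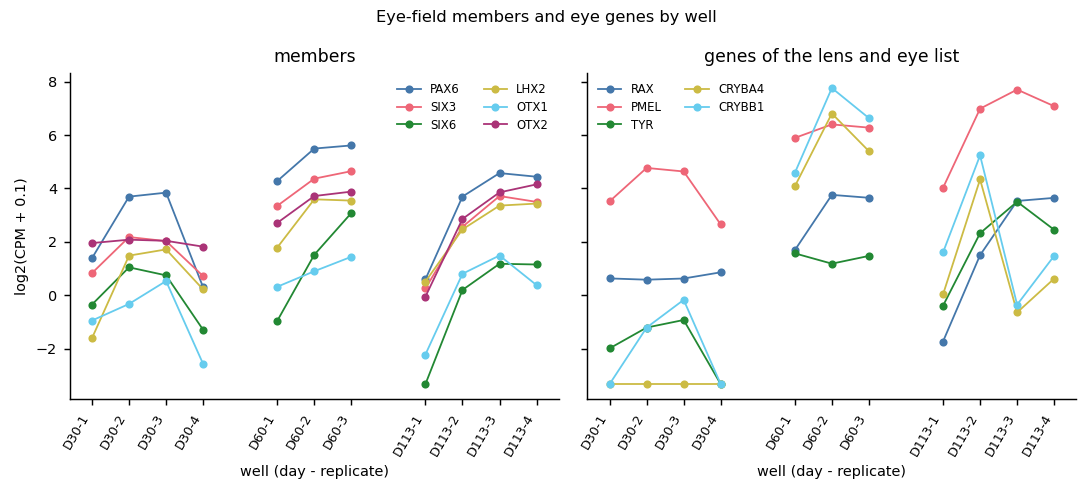
log2(CPM + 0.1) in each well for the 6 eye and forebrain members (left) and for 5 genes of the lens and eye list (right); lines join wells of the same day. Replicates 1 and 4 of Day 30 and replicate 1 of Days 60 and 113 are lowest for the members, only narrowly for OTX2 at Day 30. RAX and PMEL share the low well of Day 113.

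The remaining LHX, DLX and PAX members were scarce. LHX9 (chromosome 1, 197912464 to 197935478, plus strand), a gene of the gonad and limb, measured 0, 0.234, 0.132 and 0.309 CPM at Day 30, 1.69, 1.22 and 0.978 at Day 60 and 0.462, 1.99, 1.14 and 0.361 at Day 113. All later wells lay above all Day 30 wells, and the log2 fold change was 2.90 ± 0.86 (SE) by Day 60 (adjusted p = 0.042) and 2.51 ± 0.82 (SE) by Day 113 (adjusted p = 0.026). The Day 60 call was lost under limma-voom (0.0503) and with replicate number as an added factor (0.071). It was also lost without Day 30 replicate 1, 2 or 3, any Day 60 well or Day 113 replicate 3 (0.056 to 0.13). The Day 113 call was lost under limma-voom (0.058) and with that added factor (0.051). It was also lost without Day 30 replicate 3 (0.064), Day 113 replicate 2 (0.10) or Day 113 replicate 3 (0.052). LHX4, a gene of the pituitary and motor neurons, measured 2.48, 1.70, 1.02 and 1.68 CPM, then 1.24, 3.35 and 6.18, then 3.93, 1.16, 5.96 and 5.34, and was not called (adjusted p = 0.066 over the course). It was called without Day 113 replicate 2 (0.013) or Day 60 replicate 1 (0.038) and by DESeq2 (0.038). Of its merged exons, 30.8% are shared with ACBD6 on the opposite strand, which was at 33.8 to 55.3 CPM and rose by Day 113 (log2 fold change 0.29 ± 0.10 (SE), adjusted p = 0.039).

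DLX4 (chromosome 17, 49968572 to 49974959, plus strand) measured 1.91, 1.70, 1.68 and 1.06 CPM at Day 30, 0.926, 0.369 and 0.789 at Day 60 and 0.173, 0.675, 0.399 and 0.562 at Day 113. The Day 30 wells were above all later ones. DLX4 fell by 1.81 ± 0.56 (SE) on the log2 scale over the course (adjusted p = 0.020), a call lost without Day 30 replicate 1 (0.058) or Day 113 replicate 1 (0.0505). DLX2 measured 0.611, 1.13, 0.889 and 0.481 CPM at Day 30 and 0 counts in 2 of 3 Day 60 wells and 3 of 4 Day 113 wells, and was not called (adjusted p = 0.080). DLX1, DLX3 and DLX5 reached at most 0.867, 1.30 and 0.721 CPM in any well and were not called. PAX2, of kidney and optic stalk, was counted in 3 of 4 Day 30 wells (0.878, 0.60, 0 and 0.79 CPM) and in no later well, at least 5.60-fold lower at Day 113 than at Day 30 (adjusted p = 0.017). DESeq2 (0.12) and limma-voom (0.071) did not call it.

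Genes that work with or upstream of the members were counted from lists. Of 20 BMP genes (ligands, receptors, SMADs, ID targets and inhibitors), 14 were lower and 1 higher at Day 113 than at Day 30, where 17.2% and 17.3% of all genes were. Among the falls were those of the inhibitors NOG at -3.20 (adjusted p = 2.0e-06) and CHRD at -2.42 (adjusted p = 0.021) on the log2 scale. MSX2, which BMP signals induce, fell in the same comparison, while MSX1 was not called (log2 fold change 0.19 ± 0.25 (SE), adjusted p = 0.61). Whether BMP signals had a part in either was not tested. Of 16 retinoic acid genes, which include known regulators of HOX clusters, 4 were higher and 3 lower, beside 17.3% and 17.2% of all genes. ALDH1A3, a retinoic acid synthase of eye and other tissues, rose by Day 113 (log2 fold change 3.81 ± 0.44 (SE), adjusted p = 7.9e-06), CRABP2, which carries retinoic acid, rose (1.56 ± 0.15 (SE), adjusted p = 9.1e-07) and the receptor RXRG fell (-1.52 ± 0.17 (SE), adjusted p = 5.2e-06).

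Of 25 Polycomb genes, which keep HOX clusters silent, 9 were higher and 3 lower at Day 113 than at Day 30 (17.3% and 17.2% of all genes), with CBX7 (1.05), CBX6 (0.92) and EZH2 (0.78) changed most (adjusted p = 4.7e-06, 6.0e-06 and 0.00016). Of 14 trithorax and demethylase genes, which oppose them, 2 were higher and 3 lower, beside the same shares of all genes. KDM6B, a demethylase of the Polycomb mark, fell from 206 ± 29.5 (SD, n = 4) to 77.4 ± 5.60 (SD, n = 4) CPM (adjusted p = 3.5e-07). CDX2, which drives posterior HOX genes in gut, was at 2.94, 3.87, 2.70 and 1.37 CPM at Day 30 and at 0 counts in all later wells, at least 26.9-fold lower at Day 113 (adjusted p = 4.5e-05). It was 1 of 6 measured genes of its list and the only one called there in either of the pairs with Day 30. At Day 113 against Day 30, 11 of 13 hepatic and gut genes, a list that also holds CDX2, were lower as well, where 17.2% of all genes were.

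Of 12 genes, other TALE members and PBXIP1, which binds PBX proteins, 1 was higher and 5 lower over the course (17.3% and 17.2% of all genes), with IRX6 up (4.27 ± 0.95 (SE), adjusted p = 0.0024) and the Iroquois family genes IRX1 and IRX2 down (-1.17 and -1.22, adjusted p = 0.0014 and 0.00020). Among the 6 EYA and DACH partners of sine oculis proteins, EYA4 and DACH1 rose by Day 60 (1.32 and 1.23 on the log2 scale, adjusted p = 0.021 and 0.022), and EYA1, a coactivator of such proteins, fell after Day 60 (-0.52, adjusted p = 0.017). Of these 6, 2 were higher and 0 lower by Day 60 (4.39% and 5.91% of all genes). After Day 60, 0 were higher and 1 lower (12.9% and 11.1%), and over the course 1 was higher and 2 lower (17.3% and 17.2%). Of 12 cofactors and relatives of LIM homeodomain proteins, 3 were higher and 2 lower over the course, near the 17.3% and 17.2% of all genes. LMO3 (-1.74, adjusted p = 4.8e-05) and ISL1, a gene of heart progenitors (-1.39, adjusted p = 7.7e-05), fell, and LDB2, which is used in endothelium, rose (1.13, adjusted p = 0.042). MEIS1-AS3, an antisense RNA at MEIS1, fell over the course while MEIS1 rose (-1.72 ± 0.29 (SE), adjusted p = 0.00025). All 13 endothelial genes were called higher at Day 113 than at Day 30, where 17.3% of all genes were.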

How the data were processed

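The authors deposited a table of read counts, whole numbers per gene symbol in 11 libraries without normalization, and a second table that per its file header holds TPM. Per the submitters' processing notes the tools include STAR 2.5.3a and featureCounts 2.0.3 with build hg38; annotation, strand and multimapping settings are not given in the sources used here. Lengths implied by count over the deposited TPM did not repeat between libraries (median Spearman rho -0.0016 over 55 pairs), so TPM served only for that check. Counts were tested with edgeR 4.0.16 (glmQLFit, glmQLFTest, TMM, all 11 libraries in one fit, day as the only factor) in R 4.3.3, with Benjamini-Hochberg adjustment over 19990 genes at 0.05. The filterByExpr step (minimum count 10) removed 0 genes, and the table itself holds no gene with fewer than 35 counts. SE is the absolute log2 fold change over the square root of F. DESeq2 1.42.0, limma 3.58.1, other scalings, filters and left-out wells were alternatives. The test was tested on simulated data. Coordinates and promoters are from RefSeq GRCh38.p14, where all 46 members matched (30 for promoters), and exon lengths from GENCODE release 29. Exons of 21 members overlap another gene, for 13 of them one in the table. The floor of 3 counts covers counting error only, and no molecular identifiers were used. The SEs come from the fit and include the spread between wells. Values of each well are given for members called in any test with a mean of at least 1 CPM, in lists the 3 genes with the largest called change are named, and other members or genes were chosen after their values were seen. Members and lists were chosen with earlier results of these data known. Some members and list genes are not reported here by name, though counts over the members and lists include them.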

Additional observations from a re-analysis of the deposited data

Results flagged for a closer look

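In groups of 4 wells, 2 members had 1 well far from the other wells of its day. HOXA3 had its highest Day 113 well, replicate 1, at 1.85 CPM, with the gap to the next well covering 91.5% of the day's range. SIX4 had its highest Day 30 well, replicate 1, at 25.1 CPM (84.9%). Chance puts about 1 in 20 such groups past the limit, and 49 groups were examined. Both are replicate 1 of their day.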

How the results depend on the processing

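Of 38 calls of members (3 pairs of days and the difference between intervals), 21 were kept under every alternative run, 17 were lost under at least 1, and 0 changed direction. Limma-voom lost 8 and robust dispersions 4; DESeq2 size factors and upper-quartile scaling within edgeR lost 0. With an adjusted p under 0.01, members called numbered 3 by Day 60, 11 over the course and 2 for the interval difference, and all genes 937, 2545 and 4552 for the 3 pairs, 4800 jointly and 618 for the interval difference. Leaving out 1 well gave 4 to 8 members by Day 60, 6 to 8 after it, 13 to 19 over the course, 13 to 19 jointly and 3 to 7 for the interval difference (3 without Day 60 replicate 1). Over all genes it gave 1220 to 2618 (1220, 1259 and 1323 on leaving out replicate 3 of Day 60, replicate 1 of Day 60 and replicate 2 of Day 30), 3317 to 4735, 5657 to 6977, 6360 to 7427 and 643 to 2221 (643 and 774 without Day 60 replicates 1 and 3). Same-numbered wells correlated at 0.023 to 0.076 in their deviations, and differently numbered wells at -0.078 to 0.069. Day 30 replicate 3 correlated more with Day 60 replicate 2 (0.028) than with its own number (0.023). Likewise, Day 60 replicate 3 correlated more with Day 113 replicate 4 (0.069) than with its own number (0.043). Correlations this small do not settle whether same-numbered wells are linked, and the main fit did not pair them. With replicate number as an added factor (the replicate block), 5 member calls were lost and the interval difference called 10 members. The calls lost were HOXB1 after Day 60, HOXD4 and HOXD8 over the course, and LHX9 by Day 60 and by Day 113. Over all genes the block called 2474 by Day 60 (2060 without it) and 2366 for the interval difference (1868 without it). With the longest transcript as length, MEIS2 stood at 72.8, PBX3 at 34.0 and SIX5 at 18.7 CPM per kb at Day 30. PAX2, HOXB1, HOXD4 and HOXD8 gave no value in some alternatives, where filters removed them. Of the 15 members under 1 CPM at every day, 3 were called, and how large a change their counts could show was not tested.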
